A study of Ovis aries with 10 samples.

Results

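The miR-30 probes on a custom ovine array were examined in lung tissue from the Fibrosis and the Normal caudal segment of the same animals. Members were chosen by name alone, as every probe called oar-miR-30 followed by a letter. These are 5 of the 152 miRNA probes, namely both arms of the miR-30a hairpin (5p and 3p) with miR-30b, miR-30c and miR-30d. The 10 arrays came from 5 female sheep aged 9 months that were killed after 4 weeks, with 1 Normal and 1 Fibrosis segment in each of sheep 2, 3, 6, 7 and 10. According to the study's methods, bleomycin was given through the bronchoscope to one caudal segment and sterile saline to the opposite segment, so the Normal tissue also had an infusion and shared its animal with the fibrotic tissue. The 5 animals were taken from a larger set because their fibrosis was the most severe. The histology label of each sample set its group. It places the fibrotic segment on the left in sheep 2 and 3 and on the right in sheep 6, 7 and 10, whereas the methods give the left as the bleomycin side throughout.

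MicroRNAs are short RNAs cut from a hairpin precursor, and they repress messenger RNAs that carry a match to the seed near their 5′ end. The miR-30 family is abundant in lung and other epithelia, and its 5p members share 1 seed, which differs from that of the 3p arm of miR-30a. Members are known for restraining epithelial-to-mesenchymal transition and TGF-β signalling, and loss of miR-30a has been described in idiopathic pulmonary fibrosis. From a hairpin usually 1 arm is loaded into the silencing complex as the guide, while the opposite arm is mostly degraded, and for miR-30a the 5p arm is the better known guide. In the RefSeq annotation of the sheep genome, all 4 hairpins were found by name. MIR30B and MIR30D are neighbouring genes, MIR30A lies elsewhere on the same chromosome, and MIR30C lies on another chromosome within NFYC, which encodes a subunit of the transcription factor NF-Y. Probe sequences were not analysed here, so how far probes of such similar miRNAs share signal was not tested.

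The summed intensity of the 152 miRNA probes was nearly equal on all arrays, at 138979 to 146225 in units of background-corrected brightness. All 5 miR-30 probes were bright, which here means a mean log2 intensity of at least 5 over the 10 arrays, as for 59 of the 152. Other signals were less even. The 12 control probes for 5S ribosomal RNA, a part of the large ribosomal subunit, summed to 33415 to 81857 on the 6 arrays of sheep 2, 3 and 7 and to 159809 to 580864 on the 4 arrays of sheep 6 and 10. No probe on the array marks lung as such, and the epithelial miRNAs miR-200a, miR-200b and miR-200c were bright, as was the mesenchymal miR-143.

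All 5 miR-30 probes had a lower mean log2 intensity in the Fibrosis segments, at a fold of 0.545 to 0.869 of the Normal segments, and none passed the test across all miRNAs. With the left segment coded as fibrotic in every sheep, the side given in the methods, the log2 change was above 0 for miR-30a-3p at 0.089, miR-30b at 0.029 and miR-30d at 0.13, and centring on the control probes, which moved all miRNAs up, left only miR-30a-3p below 0. Under that left coding miR-30a-5p was at -0.12 and miR-30c at -0.11, and miR-30a-5p was lower in sheep 2 and 3 only. By the histology labels, the 3p arm of miR-30a had the lowest fold, and the 5p arm was the only member lower in all 5 sheep. A mean below that of the Normal segments was also seen for 53.3% of all 152 miRNAs. The median log2 change was -0.25 over the 5 members, -0.07 over the 59 bright miRNAs and -0.02 over all 152. At a limma adjusted p under 0.05, 0 of the 5 members and 0% of all miRNAs were called, while at an unadjusted p under 0.05 the counts were 1 member, miR-30a-3p, and 11.8% of all miRNAs. That unadjusted p was under 0.05 in 7 of 18 alternative settings and not in the other 11, among them those without sheep 2, 3, 7 or 10, and that of miR-30a-5p was under 0.05 in 1, centring on the miRNA median. Normal and Fibrosis values overlapped for all 5 members, and 1.32% of all miRNAs had no overlap. In whole tissue, fewer cells that hold a miRNA and less of it per cell cannot be told apart.

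**Figure D1:**
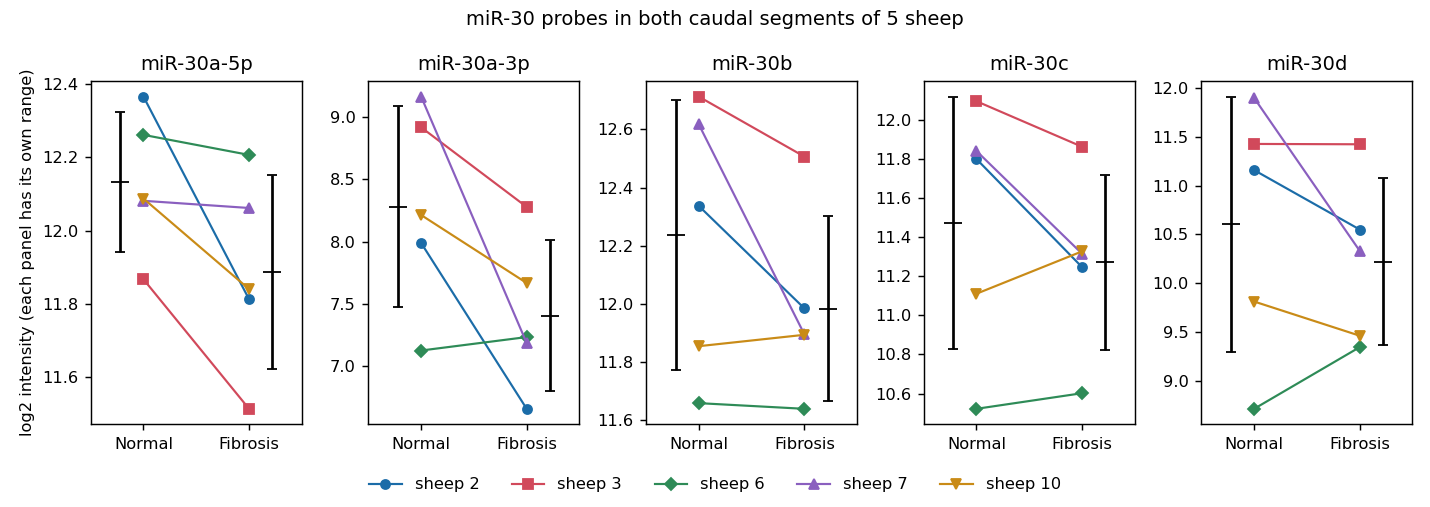
Log2 intensity of each miR-30 probe (vertical axis, with a range of its own in each panel) in the Normal and the Fibrosis segment, with 1 line per sheep and the mean ± SD of 5 sheep in black. The groups overlapped for every probe, and the lines of miR-30a-5p all run downward while that of sheep 6 runs upward for miR-30a-3p, miR-30c and miR-30d.

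MiR-30a-5p, the guide arm that the qPCR assay of the study targets, had the narrowest range of the family. From the Normal to the Fibrosis segment its intensity (oar-miR-30a-5p) went from 5277 to 3599 in sheep 2, from 3737 to 2926 in sheep 3, from 4909 to 4727 in sheep 6, from 4334 to 4276 in sheep 7 and from 4352 to 3669 in sheep 10. The highest value over the lowest was 1.80-fold, and 3 Fibrosis arrays lay below all Normal arrays while those of sheep 6 and 7 lay within them. The mean change was a fold of 0.844, with a log2 change of -0.25 and a standard error of 0.13 (limma, adjusted p = 0.516; 95% interval -0.58 to 0.09). The log2 change was -0.14 after quantile normalization and -0.40 after centring on the miRNA median. An exact permutation test that flips the sign of each animal's change (two-sided) gave p = 0.0625, the smallest value possible with 5 animals. A decrease in all 5 sheep was found in 5.26% of all miRNAs and in 3 of the 59 bright ones (5.08%). The sign-flip p and these counts rest on the histology labels. With the left segment coded as fibrotic in every sheep, miR-30a-5p was higher in that segment of sheep 6, 7 and 10.

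MiR-30a-3p, the opposite arm of the same hairpin, was the dimmest member and varied more. Its intensity (oar-miR-30a-3p) went from 254 in the Normal to 101 in the Fibrosis segment of sheep 2, from 483 to 310 in sheep 3, from 140 to 151 in sheep 6, from 573 to 146 in sheep 7 and from 297 to 203 in sheep 10. Sheep 7 went from the highest Normal value to one of the lowest Fibrosis values, and sheep 6 was low in both segments. The mean change was a fold of 0.545, the lowest of the 59 bright miRNAs, with a log2 change of -0.88 and a standard error of 0.32 (limma, adjusted p = 0.411). The exact permutation test of sign flips gave p = 0.125 (two-sided). Among the 59 bright miRNAs of a sheep, its change held rank 1 from the lowest in sheep 2, rank 2 in sheep 7 and rank 4 in sheep 3 and sheep 10, but rank 37 in sheep 6.

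MiR-30b and miR-30d, which come from neighbouring hairpins, were each lower in 4 of 5 sheep, as were 25.7% of all miRNAs and 28.8% of the bright ones in at least 4 of 5. The intensity of oar-miR-30b went from 5174 in the Normal to 4053 in the Fibrosis segment of sheep 2, from 6714 to 5820 in sheep 3, from 3234 to 3190 in sheep 6, from 6284 to 3810 in sheep 7 and from 3704 to 3805 in sheep 10. The difference was largest in sheep 7, and in sheep 6 and 10 the segments were almost level. Its log2 change was -0.25 with a standard error of 0.16 (limma, adjusted p = 0.530), and without sheep 7 it was -0.13.

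MiR-30d had the widest range of the family, 9.12-fold from the lowest to the highest array. Its intensity (oar-miR-30d) went from 2289 in the Normal to 1500 in the Fibrosis segment of sheep 2, from 2757 to 2751 in sheep 3, from 419 to 650 in sheep 6, from 3823 to 1289 in sheep 7 and from 899 to 705 in sheep 10. Sheep 7 had a fold of 0.337 and sheep 3 one of 0.998, while the fold of 1.55 in sheep 6 was the highest of the 59 bright miRNAs in that animal. The log2 change of -0.38 had a standard error of 0.33 (limma, adjusted p = 0.540; 95% interval -1.20 to 0.44) and was -0.08 without sheep 7. Without sheep 6 it was -0.63.

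MiR-30c was lower in sheep 2, 3 and 7 and higher in sheep 6 and 10. A decrease in at least 3 of 5 sheep was seen in 45.4% of all miRNAs and in 54.2% of the bright ones. Its intensity (oar-miR-30c) went from 3562 in the Normal to 2429 in the Fibrosis segment of sheep 2, from 4371 to 3721 in sheep 3, from 1470 to 1554 in sheep 6, from 3665 to 2547 in sheep 7 and from 2211 to 2568 in sheep 10. The spread between animals was wider than the difference between segments. Its log2 change was -0.20 with a standard error of 0.17 (limma, adjusted p = 0.540), and it was -0.12 without sheep 2, -0.12 without sheep 7 and -0.31 without sheep 10. The exact permutation tests of sign flips (two-sided) gave p = 0.188 for miR-30b, p = 0.313 for miR-30c and p = 0.438 for miR-30d. With miR-30a-3p, miR-30a-5p and the arm ratio, 6 measures were tested in this way.

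**Figure D2:**
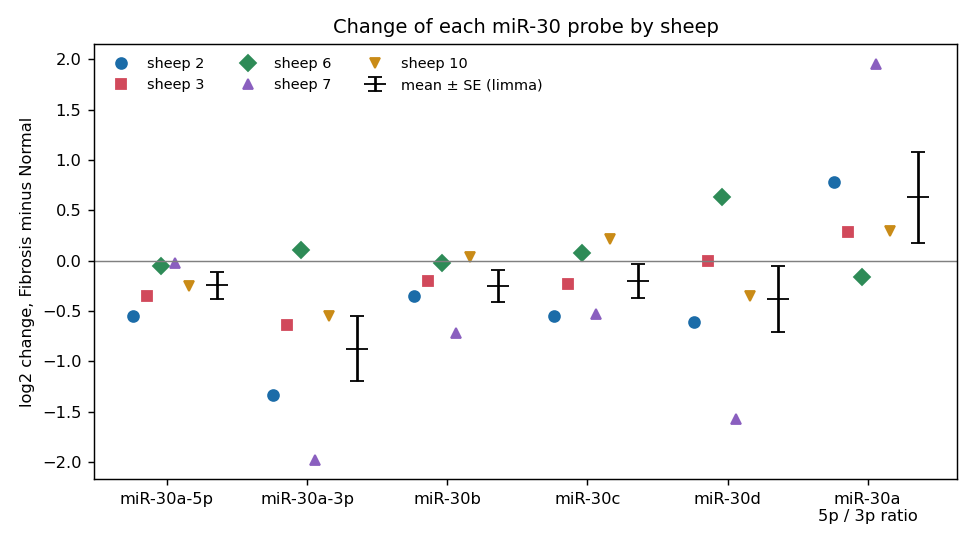
Log2 change of each miR-30 probe and of the miR-30a arm ratio from the Normal to the Fibrosis segment (vertical axis), with 1 symbol per sheep and the mean ± SE of the limma fit in black. Sheep 2, 3 and 7 lie at or below 0 for all 5 probes, and sheep 6 and 10 lie on both sides of 0.

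The pattern of the family differed from animal to animal, which was not tested. All 5 members were lower in the Fibrosis segment of sheep 2, sheep 3 and sheep 7, 3 members were lower in sheep 10 and 2 in sheep 6. Averaged over miR-30a-5p, miR-30b, miR-30c and miR-30d, sheep 2 had a log2 change of -0.52, sheep 3 of -0.20, sheep 6 of 0.16, sheep 7 of -0.71 and sheep 10 of -0.09. The median change of the 59 bright miRNAs stayed within -0.06 and 0.04 in these animals. In sheep 7 the members spread widest, from -0.02 for miR-30a-5p to -1.57 for miR-30d and -1.98 for miR-30a-3p on the log2 scale.

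The ratio of the miR-30a arms compares probes of 1 array and does not change when an array is scaled as a whole. The 5p intensity was 20.8 times the 3p intensity in the Normal and 35.6 times in the Fibrosis segment of sheep 2. From Normal to Fibrosis, the ratio went from 7.74 to 9.43 in sheep 3, from 35.1 to 31.4 in sheep 6, from 7.57 to 29.4 in sheep 7 and from 14.7 to 18.0 in sheep 10. It was higher in the Fibrosis segment of 4 of 5 sheep and lower in sheep 6, and the groups overlapped. Because probes differ in how strongly they bind and shine, the size of the ratio is not a ratio of molecules, and only its change is compared here.

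The mean ratio over 5 sheep was 17.2 ± 11.4 (SD) for Normal segments, and for Fibrosis segments it was 24.8 ± 10.8 (SD). On the log2 scale its mean change was 0.63 with a standard error of 0.45 (limma over 48 hairpins, adjusted p = 0.509; 95% interval -0.42 to 1.68), and the exact permutation test of sign flips gave p = 0.125 (two-sided). Without sheep 7, where the ratio was 3.88-fold higher, the mean log2 change was 0.30, and with the left segment coded as fibrotic in every sheep it was -0.21. Among the 48 hairpins with both arms on the array, 23 had a larger absolute change, 18.8% had a higher ratio in at least 4 of 5 sheep and 0% passed an adjusted p under 0.05, with 4 (8.33%) at an unadjusted p under 0.05. MiR-30a was the 1 hairpin with both arms bright. Of the other hairpins, 6 had 1 bright arm and 41 had none, so no other hairpin gives a comparison at like brightness. On at least 1 array, 38 of the 48 hairpins had an arm below 1, which was raised to 1. The limma fit shares variance across all 48, so the adjusted p also rests on such hairpins.

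**Figure D3:**
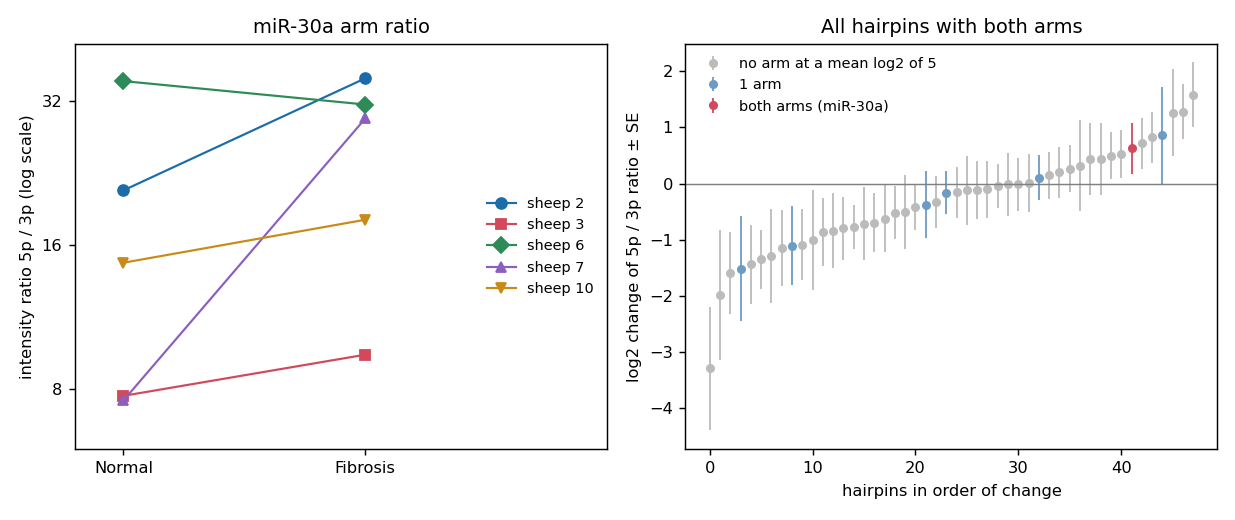
Left, intensity of the 5p arm over the 3p arm of miR-30a in both segments, with 1 line per sheep on a log axis. Right, log2 change of the same ratio ± SE (limma) for the 48 hairpins with both arms on the array, in order of change and coloured by how many arms had a mean log2 intensity of at least 5; the change of miR-30a, 0.63, lies within the range of the dim hairpins.

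Across the 10 arrays, miR-30a-5p did not follow the rest of the family. After the mean of each probe was subtracted, the root mean square distance between log2 profiles was 0.19 for miR-30b and miR-30c, which come from different chromosomes, and 0.67 for miR-30b and miR-30d, which are neighbours. The distance of miR-30a-5p was 0.52 to miR-30b, 0.65 to miR-30c, 1.11 to miR-30d and 0.84 to its own 3p arm. As a description of 10 arrays that share 5 animals, Pearson's r was 0.95 between miR-30b and miR-30c, 0.94 between miR-30b and miR-30d and 0.92 between miR-30c and miR-30d. It was 0.81, 0.72 and 0.68 between miR-30a-3p and miR-30b, miR-30c and miR-30d, whereas miR-30a-5p had -0.38, -0.42 and -0.34 with the same members and -0.14 with its 3p arm. By this measure the 3p arm lay nearer to miR-30b, miR-30c and miR-30d than to the 5p arm cut from its own hairpin. In sheep 6 miR-30a-5p was above its own mean in both segments and every other member was below, and in sheep 3 the order was the opposite.

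**Figure D4:**
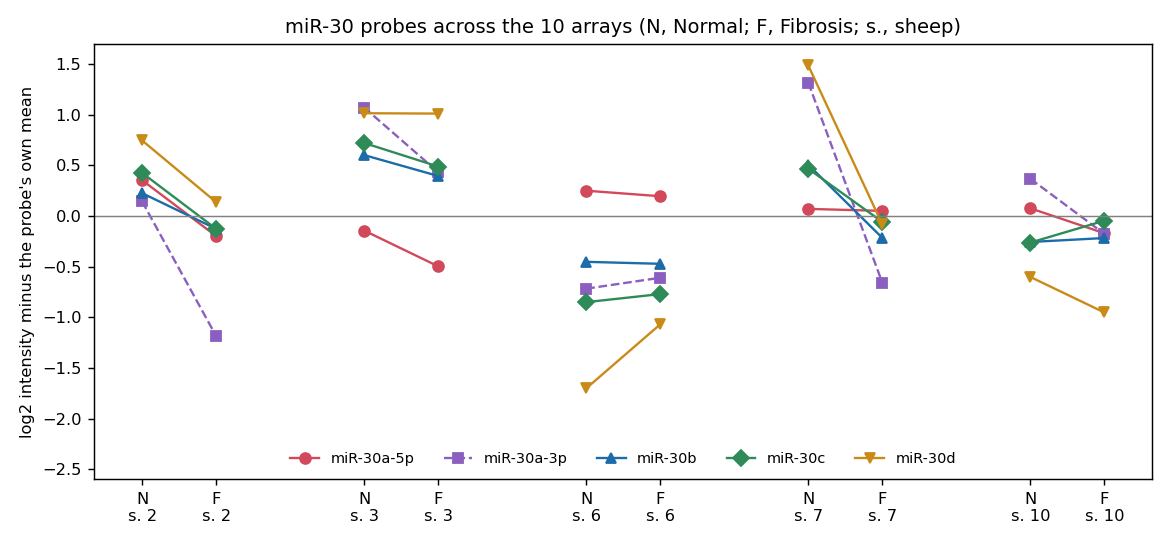
Log2 intensity of each miR-30 probe minus its mean over the 10 arrays (vertical axis), with the Normal and the Fibrosis segment of each sheep joined by a line. MiR-30a-5p lies above the other members in sheep 6 and below them in sheep 3, while miR-30b and miR-30c run close together.

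The log2 intensities were split into parts between sheep, which hold 4 of the 9 degrees of freedom, and between conditions, which hold 1. The share of the sum of squares of log2 intensity that lay between sheep was 86.6% for miR-30c, 83.5% for miR-30d, 75.9% for miR-30b, 57.1% for miR-30a-5p and 46.6% for miR-30a-3p, against a median of 72.5% over the 59 bright miRNAs. The condition held 26.1% for miR-30a-5p and 32.1% for miR-30a-3p, and between 3.55% and 11.1% for the other members, against a median of 7.75%. Per degree of freedom, sheep held 14.3% for miR-30a-5p and 11.7% for miR-30a-3p, less than the condition, and for miR-30b, miR-30c and miR-30d more than the condition. None of these shares was tested. The standard deviation over the 10 arrays was 1.06 for miR-30d, exceeded by 2 of the 59 bright miRNAs, and 0.25 for miR-30a-5p, exceeded by 45 of them.

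The change of miR-30a-3p lay below that of miR-30d in each of the 5 sheep. Its log2 change minus that of miR-30d was largest for sheep 2 at -0.72, followed by sheep 3 at -0.63, sheep 6 at -0.52, sheep 7 at -0.41 and sheep 10 at -0.19. These members had the same sign of change in all 5 sheep, although miR-30d was almost level in sheep 3, at a fold of 0.998. Both were higher in the Fibrosis segment of sheep 6 and had the lowest folds of the family in sheep 7. This pair was singled out after its values were seen, and the difference was not tested.

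MiR-30d was low where the 5S ribosomal RNA probes were bright, a split of the arrays made after the 5S values were seen. The 4 arrays with the highest 5S sums, those of sheep 6 and 10, had the 4 lowest miR-30d intensities, 419 to 899, against 1289 to 3823 on the other 6 arrays. MiR-30b showed the same order, with 3190 to 3805 against 3810 to 6714, but the nearest values of both ranges almost met. For miR-30c the ranges overlapped, with 1470 to 2568 against 2429 to 4371. For miR-30a-5p the 4 arrays had 3669 to 4909, within the range of 2926 to 5277 on the other 6. Of the 59 bright miRNAs, 7 (11.9%) were lower on all 4 of these arrays than on all other 6, and 2 were higher.

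Within animals, the 5S sum was higher in the Fibrosis segment of sheep 2, 3 and 7, at folds of 1.52, 1.56 and 1.23, and lower in sheep 6 and 10, at folds of 0.786 and 0.500. MiR-30d lay the opposite way in sheep 2, 6 and 7, at folds of 0.656, 1.55 and 0.337, was almost level in sheep 3 and was lower together with the 5S sum in sheep 10, at a fold of 0.784. The part of this signal in the miR-30 values was not tested. Sheep 2, 3 and 7 are also the animals in which all 5 members were lower, so their larger changes are fixed by this choice and given as a description. In sheep 2, 3 and 7 alone, the log2 changes were -0.31 for miR-30a-5p, -1.31 for miR-30a-3p, -0.43 for miR-30b, -0.44 for miR-30c and -0.73 for miR-30d.

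**Figure D5:**
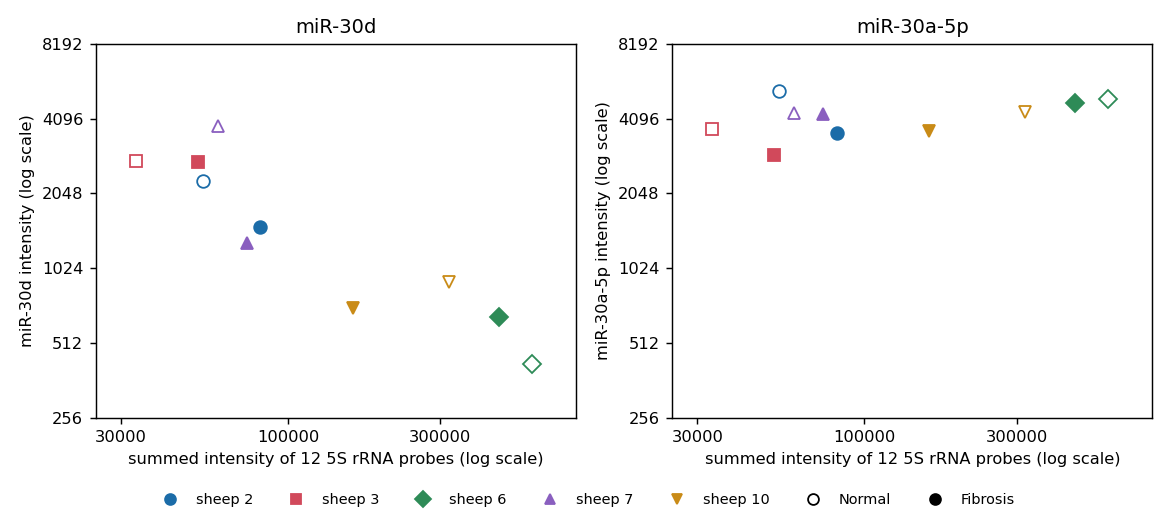
Intensity of miR-30d (left) and miR-30a-5p (right) against the summed intensity of the 12 probes for 5S ribosomal RNA, with 1 symbol per array and both axes on a log scale. The 4 arrays of sheep 6 and 10 have 5S sums of 159809 or more and miR-30d intensities of 899 or less, while their miR-30a-5p intensities lie among those of the other arrays.

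Outside the family, the bright miRNAs nearest to miR-30a-5p by root mean square distance were miR-26a and miR-181a, at 0.17 and 0.18 over the 10 arrays. MiR-191, miR-152 and miR-16b followed at 0.24 to 0.25. The median distance over 54 candidates was 0.44. The mean log2 changes of these 5 miRNAs were -0.22, -0.17, -0.16, -0.15 and 0.04 in this order. A small distance did not always go with a like pattern. Pearson's r with miR-30a-5p was 0.70 for miR-26a and 0.75 for miR-181a, but 0.30 for miR-191 and 0.20 for miR-16b. By r, miR-29a, miR-362 and miR-143 came after miR-181a and miR-26a, at 0.70, 0.64 and 0.63. For miR-30a-3p the nearest were miR-10a at 0.44, let-7b at 0.49, miR-10b at 0.52, let-7a at 0.52 and let-7d at 0.53, against a median of 0.86. All 5 had small mean changes, from -0.18 for miR-10a to -0.07 for let-7d, against -0.88 for miR-30a-3p itself. By Pearson's r, miR-25 was the highest for miR-30a-3p at 0.90, with a mean log2 change of -0.23.

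Other miRNAs described as lower in lung fibrosis were on the array as well. Of 11 such probes, miR-29a, miR-29b, miR-26a, miR-26b and 7 of the let-7 family, 7 had a mean below 0 and 4 above, with a median log2 change of -0.07, and limma called 0 of them with adjustment and 0 without. MiR-29a, which targets collagen messenger RNAs, and miR-26a were lower in all 5 sheep, with log2 changes of -0.19 and -0.22. MiR-21, a miRNA induced by TGF-β signalling, and miR-199a-3p were higher in all 5 sheep, with 0.73 and 0.49, and an adjusted p of 0.411 each in limma.

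Markers of other cell types differed between arrays as well. The epithelial miR-200a, miR-200b and miR-200c were all on the array, and their summed intensity was 2400 to 4319 in Normal and 3496 to 6712 in Fibrosis segments. They lay the opposite way to the miR-30 members, with log2 changes of 0.67, 0.58 and 0.36, higher values in 4, 5 and 4 of 5 sheep and limma adjusted p of 0.428, 0.411 and 0.540 in this order. For the mesenchymal list 2 of 3 probes were on the array, miR-143 and miR-199a-3p, with sums of 5564 to 20054 and 8483 to 16264. MiR-133 of striated muscle had 35.2 to 162 in Normal and 23.5 to 49.3 in Fibrosis segments, and miR-150 of lymphocytes had 445 to 2107 and 309 to 1985. The listed markers of erythroid and endothelial cells had no probe of their name on the array. MiR-103, the reference of the qPCR assay, had an intensity of 809 ± 77.9 (SD over 5 sheep) in Normal and of 860 ± 39.9 in Fibrosis segments. The part of cell make-up in the miR-30 values was not tested.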

How the data were processed

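Small RNA from 10 tissue samples was labelled with 1 dye (Cy3) and hybridised to a custom ovine array. For each array the authors deposited 1 intensity per probe, described in the methods as background corrected, averaged over replicate spots and log2 transformed, although the deposited intensities are linear. Any scaling between arrays is not given in the sources used here. Values below 1 were raised to 1 before taking log2. Condition was fitted with sheep as a blocking term in limma 3.58.1 (R 4.3.3), using lmFit and eBayes with Benjamini-Hochberg adjustment over 152 miRNAs. Arm ratios of 48 hairpins were fitted likewise. The fit was tested on simulated data. The number of arrays limits the precision, and single spots were not analysed here. As limma shares variance across all 152 miRNAs, the standard errors and intervals of the members also rest on dim probes. For miR-30a-5p the unadjusted p was 0.120 in limma over all miRNAs, 0.084 in limma over the bright ones and 0.067 in Student's paired test.

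Pairing rests on the shared animal. Across miRNAs, the deviations of both segments from their group means correlated at 0.34 for sheep 2, 0.90 for sheep 3, 0.40 for sheep 6, -0.67 for sheep 7 and 0.56 for sheep 10. The median between different sheep was -0.09.

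Members and lists were chosen with earlier results of these data known. Named miRNAs were the 5 members, the 5 bright miRNAs nearest to each miR-30a arm and a few by Pearson's r. A list described for fibrosis, cell type markers and miR-103 were named as well. The rule also asked for other hairpins with both arms bright, of which there were none, and for probes sharing a seed, which was not analysed here. MiR-451, miR-144, miR-126 and miR-214 of the marker lists had no probe of their name on the array. Alternatives were other scalings, a floor of 32, a filter on dim miRNAs, no block, leaving out sheep, another coding of the segments and Student's test over 5 sheep. The methods tested each sheep separately over replicate spots, which was not repeated here.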

Additional observations from a re-analysis of the deposited data

How the results depend on the processing

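Under 18 alternatives (17 for the arm ratio), no member and no miR-30a arm ratio passed an adjusted p under 0.05. Centring arrays on the median of their control probes raised the median change of all miRNAs from -0.02 to 0.39. The log2 changes of the members were then 0.17 for miR-30a-5p, 0.16 for miR-30b, 0.21 for miR-30c, 0.031 for miR-30d and -0.47 for miR-30a-3p. Only miR-30a-3p stayed below 0. This centring moves all miRNAs of an array by the same value, so the place of the members among all miRNAs could not change. It called 1 of the 152 miRNAs. When the left side was coded as fibrotic in all animals, as in the methods, the direction turned for miR-30a-3p at 0.089, miR-30b at 0.029, miR-30d at 0.13 and the arm ratio at -0.21. MiR-30a-5p at -0.12 and miR-30c at -0.11 stayed below 0. Sheep 2 and 3 alone, whose side is the same in both sources, had log2 changes of -0.98 for miR-30a-3p, -0.45 for miR-30a-5p, -0.28 for miR-30b, -0.39 for miR-30c and -0.31 for miR-30d. Under the other alternatives every member stayed below 0 and the ratio above 0, but many of these could not change the sign. The floor of 32, the filter on dim miRNAs, no block and Student's tests left the members' mean changes as they were. Shifting an array as a whole cannot change the ratio. Sheep 2, 3 and 7 each had all members lower and the ratio higher, so their subsets could not have changed a sign. Quantile normalization, leaving out single sheep (except for miR-30a-5p, lower in all 5) and, for the members, the other scalings could have.

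The count of miRNAs at an unadjusted p under 0.05 was 18, and it was 7 with a floor of 32, 9 with bright miRNAs only, where fewer were tested, 3 with the left side coded as fibrotic, 9 with Student's test paired by sheep and 6 unpaired. These tests, of the kind the methods name, compare 5 sheep with 1 value per array, whereas the methods tested each sheep separately over replicate spots. At p under 0.01 the paired form gave 1 and the unpaired form 2 miRNAs, and 0 after Benjamini-Hochberg adjustment. Without the replicate block the count was 8 and miR-30a-3p had an adjusted p of 0.716. With sheep left out in turn, the count ran from 6 to 26, that of arm ratios called from 0 to 1 (without sheep 7), and the log2 change of miR-30d from -0.63 to -0.08. In sheep 2 and 3 alone, 8 arm ratios were called, without that of miR-30a. That fit has only these animals, and 41 of the 48 hairpins have no bright arm, so its calls are not read as a result. The causes of these shifts were not tested, beside those the alternatives build in. The arm ratio could not be fitted across bright hairpins, since miR-30a was the only one. The analysis of sheep 2, 3 and 7 alone was chosen after seeing the data.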
